A study of Caenorhabditis elegans with 18 samples.

Results

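The comparison described here set all animals that carried the *ceh-14* mutation against all animals that did not. Of 18 libraries in the study, 9 came from mutants of *ceh-14* (the single mutant and the double mutants with *tdp-1* and with *fust-1*) and 9 from animals with an intact gene (*fust-1*, *tdp-1* and wild type N2), with 3 libraries (A, B and C) per genotype. All libraries hold poly(A) RNA of synchronized whole *Caenorhabditis elegans* at the fourth larval stage, and the study calls the libraries of a genotype biological replicates. The mutants carried *ceh-14(ch3)*, a deletion within the gene, *fust-1(csb21)*, a deletion marked with myo-2::GFP, which is expressed in the pharynx, and *tdp-1(csb38)*, a deletion marked with myo-3::GFP, which is expressed in body wall muscle. Each RNA-binding protein mutation and its marker therefore stood on both sides of the comparison. The alleles are those of the study's strain list, and the labels name the genes only. That list holds 1 *ceh-14(ch3)* strain, so any other difference carried by that strain into the double mutants cannot be told apart from the loss of *ceh-14*.

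CEH-14 is a LIM homeodomain transcription factor of the LHX3 and LHX4 class. It helps to set the identity of particular neurons, including the thermosensory AFD, the sleep-promoting ALA and the phasmid sensory neurons of the tail, and is also expressed in the spermatheca, the chamber in which eggs are fertilized. FUST-1 and TDP-1 are RNA-binding proteins. Since RNA came from whole animals, fewer cells of a type and less RNA per cell cannot be told apart.

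Depth was 23861898 to 102097723 counts in genes in the *ceh-14* mutant libraries, with a median of 48779274, and 19556372 to 119814176 in the *ceh-14* intact libraries, with a median of 52969441. None of the lists of neuron, body muscle, pharynx, intestine or hypodermis markers had a member called, and the summed level of each overlapped between *ceh-14* mutant and intact libraries. In that order these lists held 11, 8, 7, 8 and 7 tested genes, and 0.632% of all tested genes were called.

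The *ceh-14* transcript itself was lower in every mutant library than in any intact one. *ceh-14* (WBGene00000438) lies on chromosome X at 7527769 to 7532732 of WBcel235. Its level, in CPM (counts scaled to a common library size), was 1.44, 1.90 and 2.08 in the *ceh-14* single mutant, 1.99, 1.89 and 1.65 in *fust-1; ceh-14*, and 2.47, 1.09 and 0.675 in *tdp-1; ceh-14*. Among intact animals it was 6.72, 7.01 and 2.70 in *fust-1*, 6.48, 6.95 and 6.21 in *tdp-1*, and 5.45, 5.84 and 5.33 in wild type. The groups did not overlap, although *fust-1* replicate C stood close to the highest mutant library. The pooled log2 fold change was -1.81 ± 0.22 (SE, 9 libraries against 9; adjusted p = 0.000122, edgeR quasi-likelihood test). An exact two-sided permutation test with the *ceh-14* labels exchanged within each background gave p = 0.00025, the smallest that its 8000 arrangements allow. Counts are per gene and do not separate exons inside and outside the deletion. The other mutated genes followed their labels as well: *fust-1* stood at 35.9 to 51.6 CPM in the 6 libraries of its mutants and at 144 to 183 CPM elsewhere, and *tdp-1* at 13.7 to 23.3 CPM in the 6 libraries of its mutants and at 84.2 to 124 CPM elsewhere.

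**Figure D1:**
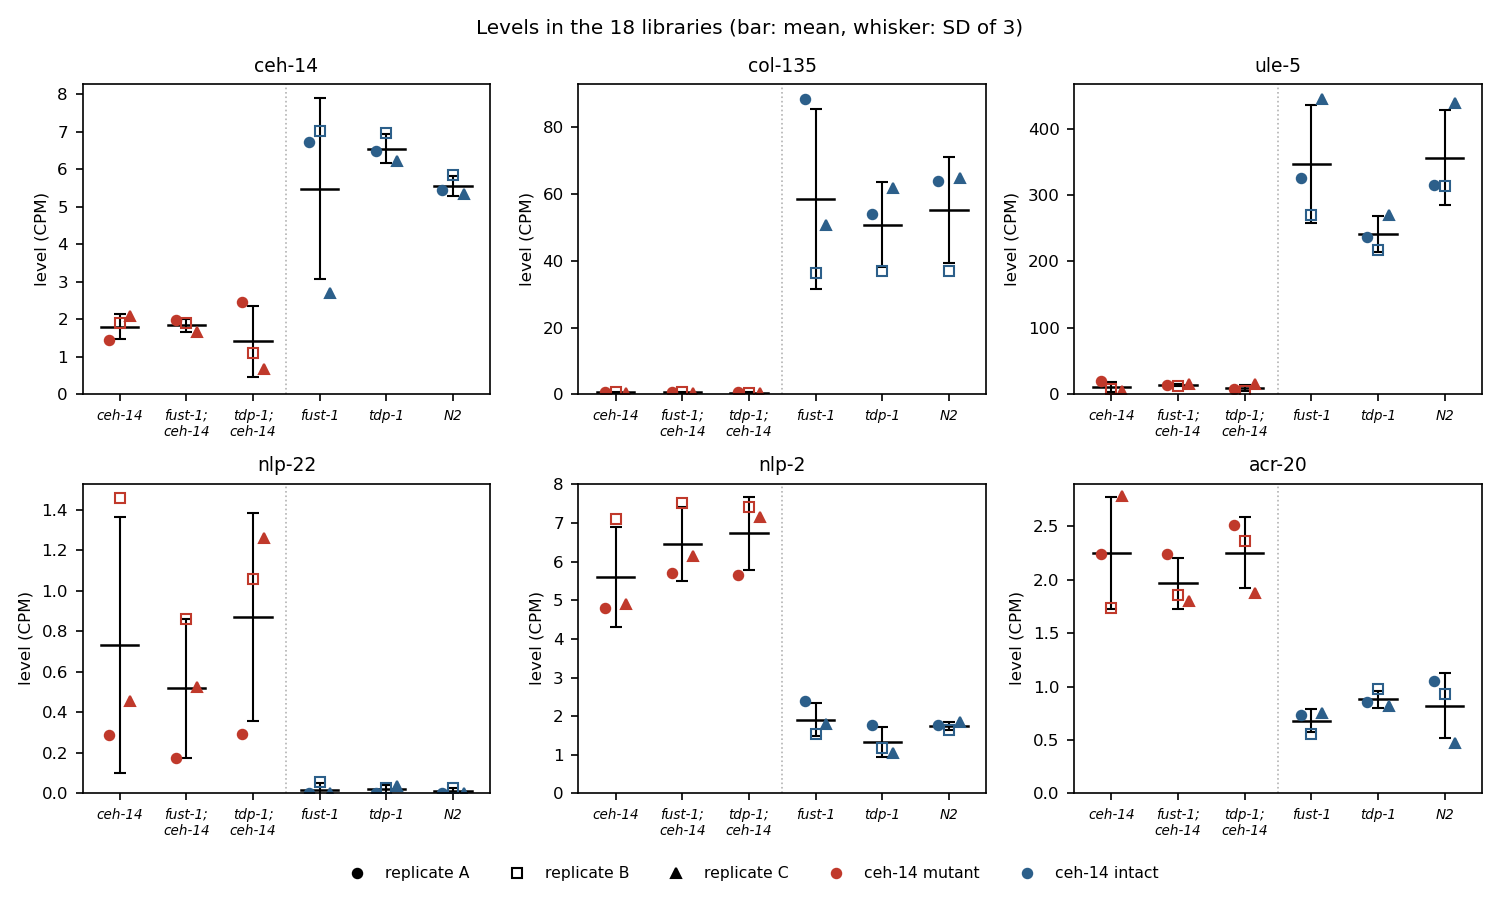
Levels in CPM of *ceh-14*, *col-135*, *ule-5*, *nlp-22*, *nlp-2* and *acr-20* in the 18 libraries, by genotype, with the 3 *ceh-14* mutant genotypes left of the dotted line and the 3 intact genotypes right of it. Points are libraries, horizontal bars means and whiskers the SD of 3 libraries. In each panel the 9 mutant libraries lie wholly below or wholly above the 9 intact ones, as with *col-135*, at 0.455 to 0.740 CPM in *ceh-14* mutants and 36.4 to 88.4 CPM in intact animals.

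To ask which genes depend on *ceh-14* whatever the RNA-binding protein background, each of 17560 tested genes was fitted with background and replicate letter as additive terms beside *ceh-14* status. A gene was called at an adjusted p under 0.01 and an absolute log2 fold change over 1. This called 111 genes, 0.632% of those tested, of which 31 (0.177%) were higher and 80 (0.456%) were lower in *ceh-14* mutants. At an adjusted p under 0.05 with no limit on the fold change, 634 genes (3.61%) differed. Of the 111, 110 had the same sign in all 3 backgrounds (*ceh-14* over wild type, *fust-1; ceh-14* over *fust-1*, and *tdp-1; ceh-14* over *tdp-1*). The exception was *haf-6*. A gene was taken to agree when its fitted log2 fold change also exceeded 1 in size, in the pooled direction, in each background. In all, 76 genes agreed (0.433% of those tested), 22 higher (0.125%) and 54 lower (0.308%), *ceh-14* included. Agreement is part of how these genes were chosen, and no test of it is given. Of the 76, 67 also had an unadjusted p under 0.05 in each background (edgeR). With that p in place of the fold change within each background, 24 higher and 62 lower genes agreed. Among the genes just inside the limit on the fold change were *str-16* at a pooled log2 fold change of 1.03 and *fbxa-99* at -1.04, and just outside it lay R160.3 at -0.99 and WBGene00022205 at 0.98.

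The 9 mutant libraries all lay below the 9 intact ones for 28 of the 54 agreeing lower genes and above them for 10 of the 22 agreeing higher genes. Over all tested genes this held for 42 (0.239%) and 27 (0.154%). Many of the agreeing genes had low levels, with 27 of the 76 at a median under 1 CPM in both groups. Some counts moved by over 1.5 times when 1 library was left out. Calls were 296 lower without *fust-1; ceh-14* replicate C, of which 215 agreed in all backgrounds, and 50 higher without *ceh-14* replicate C, 20 without *fust-1* replicate B and 18 without *tdp-1* replicate B. Across the 18 fits that each left out 1 library, 53 of the 76 agreeing genes were called in every one, and none of the 76 changed sign.

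The agreeing lower genes began with 4 that kept little of their RNA in *ceh-14* mutants. *col-135* (WBGene00000708; chromosome IV, 15129655 to 15131797), a cuticle collagen gene, had a lowest, median and highest level of 0.455, 0.561 and 0.740 CPM in *ceh-14* mutants, against 36.4, 53.9 and 88.4 CPM in intact animals. Its pooled log2 fold change was -6.50 ± 0.18 (adjusted p = 7.77e-13, edgeR), and it was -6.30, -6.67 and -6.55 in the wild type, *fust-1* and *tdp-1* backgrounds. The whole spread of the mutant libraries was thus far below the lowest intact library, whichever background they came from. K07A1.6 (WBGene00010613; chromosome I, 9591939 to 9593103), a protein-coding gene with no name, stood at 0.101, 0.206 and 0.502 CPM in *ceh-14* mutants, against 19.3, 23.8 and 49.2 CPM in intact animals (log2 fold change -6.65 ± 0.24, adjusted p = 2.42e-11, edgeR). E02H9.7 (WBGene00017105; chromosome III, 2445243 to 2445674), also unnamed, stood at 0.0209, 0.0863 and 0.253 CPM, against 4.76, 7.31 and 9.55 CPM in intact animals (-6.04 ± 0.31, adjusted p = 3.71e-09, edgeR). *ule-5* (WBGene00013394; chromosome X, 11883127 to 11884042), named for a product found in the lumen of the uterus, stood at 5.60, 12 and 19.7 CPM in *ceh-14* mutants, against 216, 314 and 444 CPM in intact animals (-4.76 ± 0.22, adjusted p = 1.08e-09, edgeR).

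Both Y62H9A.3 and Y62H9A.5, unnamed neighbours of *ule-5* described here after their values were seen, fell with it. Y62H9A.5 had a lowest, median and highest level of 16.0, 28.1 and 43.4 CPM in *ceh-14* mutants, against 177, 263 and 623 CPM in intact animals (log2 fold change -3.33 ± 0.21, adjusted p = 4.49e-08, edgeR). Y62H9A.3 stood at 30.3, 33.2 and 41.4 CPM, against 77.1, 85.5 and 107 CPM in intact animals (-1.34 ± 0.08, adjusted p = 2.84e-08, edgeR). Neither overlapped between the groups, and the 3 genes span 4.9 kb of chromosome X. The other 14 genes in the list of uterus and vulva genes included no call, and *ule-1* among them was at 0.51 ± 0.12 (adjusted p = 0.0295, edgeR), opposite in sign to *ule-5*.

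Genes of the response to infection made up a further group of falls. In the list of immune effectors, 9 of 77 tested members fell, 8 of them in agreement across backgrounds, and none was called higher, beside 0.456% of all tested genes called lower. At an adjusted p under 0.05 with no limit on the fold change, 13 members were lower and 2 higher, the higher ones being *thn-2* at 0.95 and *fipr-16* at 1.40. The median log2 fold change of the list was -0.34, against -0.03 over all tested genes, with -0.36, -0.42 and 0.06 in the wild type, *fust-1* and *tdp-1* backgrounds. The members that fell were *dod-17*, *dod-21* and *dod-22*, which encode secreted proteins with a CUB-like domain, *irg-1*, *irg-4*, *irg-5* and *irg-6*, named as infection response genes, *cnc-4*, an antimicrobial peptide gene of the epidermis, and the lysozyme gene *lys-2*. *dod-22* stood at 1.95, 6.26 and 19.4 CPM (lowest, median and highest) in *ceh-14* mutants, against 34.9, 50.5 and 91.0 CPM in intact animals (log2 fold change -3.17 ± 0.39, adjusted p = 0.000122, edgeR). *dod-21* stood at 0.0253, 0.363 and 1.04 CPM in mutants, against 1.96, 5.42 and 11.3 CPM in intact animals (-3.91 ± 0.43, adjusted p = 4.68e-05, edgeR). For both *dod* genes the mutant libraries lay wholly below the intact ones.

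The remaining immune members were less even. *irg-1* had 0.945, 1.76 and 2.83 CPM in *ceh-14* mutants, against 1.89, 7.96 and 14.4 CPM in intact animals (-2.02 ± 0.27, adjusted p = 0.000339, edgeR), and *cnc-4* had 0.653, 1.09 and 2.87 CPM, against 1.95, 6.81 and 16.6 CPM (-2.45 ± 0.36, adjusted p = 0.000808, edgeR). *dod-17* had 8.90, 22.3 and 38.9 CPM, against 30.4, 63.8 and 127 CPM in intact animals (-1.62 ± 0.21, adjusted p = 0.000242, edgeR). For these 3 genes the groups overlapped at their edges. The calls of *irg-4*, *irg-5* and *irg-6* were lost in 12, 13 and 6 of the 18 fits without 1 library. *lys-2* fell without meeting the agreement rule, since its log2 fold change was -0.80 in the *fust-1* background, beside -1.50 and -1.07 in the wild type and *tdp-1* backgrounds.

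C-type lectins, a large family of secreted proteins with a carbohydrate-binding type of fold, moved both ways. Of 153 tested members 4 fell and 2 rose, all 6 in agreement across backgrounds, beside 0.456% of all tested genes called lower and 0.177% called higher. The median log2 fold change of the list was -0.05. *clec-67* had a lowest, median and highest level of 0.811, 2.70 and 8.05 CPM in *ceh-14* mutants, against 22, 54.5 and 81.3 CPM in intact animals (log2 fold change -4.07 ± 0.34, adjusted p = 1.94e-06, edgeR), with no overlap. *clec-223* had 2.28, 2.90 and 4.87 CPM, against 4.97, 7.81 and 13.5 CPM in intact animals (-1.38 ± 0.16, adjusted p = 7.68e-05, edgeR), again with no overlap. *clec-190*, a neighbour of *col-135*, was at 0 in 5 mutant libraries and at most 0.209 CPM in the others, against 0.250 to 2.14 CPM in intact animals (-3.44 ± 0.68, adjusted p = 0.00913, edgeR). In the wild type background it had 0.185, 0.209 and 0.0253 CPM in *ceh-14*, against 0.389, 0.339 and 0.527 CPM in wild type, and the log2 fold change there of -1.33 did not pass (adjusted p = 0.926, edgeR). In the *fust-1* and *tdp-1* backgrounds the log2 fold change was -5.63 and -7.99. No *clec-190* count was seen in the 3 *tdp-1; ceh-14* libraries, so the value there depends on the prior count. The study, citing a qRT-PCR figure rather than counts, reports *clec-190* as unchanged in single mutants. It reports the gene as strongly lower in *tdp-1; ceh-14* and modestly lower in *fust-1; ceh-14*. The call of *clec-190* was lost in 15 of the 18 fits without 1 library. *clec-21*, which rests on 13 counts in all mutant libraries and 78 in all intact ones, was lost in 12 of them.

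The lectin genes that rose were *clec-60* and *clec-266*. *clec-60* had 3.14, 14.9 and 28.9 CPM in *ceh-14* mutants, against 2.5, 5.39 and 12.2 CPM in intact animals (1.31 ± 0.26, adjusted p = 0.00985, edgeR), an overlap of most of the intact range, and its call was lost in 15 of 18 fits without 1 library. *clec-266* had 0.350, 0.822 and 1.83 CPM, against 0.124, 0.425 and 0.738 CPM (1.42 ± 0.25, adjusted p = 0.00482, edgeR). It overlaps *kqt-1* on the opposite strand over 371 bases, and the strand setting of the counting is not given in the sources used here.

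Neuropeptide genes held the largest rise of the comparison. Of 131 tested members 4 rose and 5 fell, and 8 of these 9 agreed across backgrounds, beside 0.632% of all tested genes called in either direction. *nlp-22* (WBGene00003760; chromosome X, 2341359 to 2342089) encodes a peptide that promotes sleep-like quiescence during larval molts. Its level was 0.288, 1.46 and 0.456 CPM in *ceh-14*, 0.173, 0.859 and 0.523 CPM in *fust-1; ceh-14*, and 0.290, 1.06 and 1.26 CPM in *tdp-1; ceh-14*, against at most 0.0558 CPM in any intact library. Every mutant library was therefore above every intact one, from 442 counts in all mutant libraries and 6 in all intact libraries. The pooled log2 fold change was 5.32 ± 0.39 (adjusted p = 4.84e-07, edgeR).

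Its neighbours *nlp-2* and *nlp-45* rose too, and the 3 genes span 7.2 kb. *nlp-2*, whose peptides are of the same RPamide family as NLP-22, had a lowest, median and highest level of 4.79, 6.15 and 7.52 CPM in *ceh-14* mutants, against 1.04, 1.76 and 2.38 CPM in intact animals (log2 fold change 1.93 ± 0.16, adjusted p = 1.78e-06, edgeR). *nlp-45* had 0.863, 1.22 and 2.04 CPM, against 0.158, 0.355 and 0.754 CPM (1.67 ± 0.23, adjusted p = 0.000432, edgeR). In both, all mutant libraries lay above all intact ones. The fourth rise, of the insulin-like gene *ins-8* (1.94 ± 0.38, adjusted p = 0.00785, edgeR), was lost in 13 of 18 fits without 1 library.

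The neuropeptide genes that fell were *nlp-29*, *nlp-30*, *nlp-58*, *nlp-70* and *nlp-82*. *nlp-29* and *nlp-30*, which lie side by side and encode antimicrobial peptides of the epidermis rather than signals between neurons, had log2 fold changes of -1.28 ± 0.23 and -1.53 ± 0.27 (adjusted p = 0.00466 and 0.00482, edgeR), and the call of *nlp-30* was lost in 8 of 18 fits without 1 library. *nlp-82* had 0.226, 0.309 and 0.475 CPM in *ceh-14* mutants, against 0.844, 1.17 and 2.39 CPM in intact animals (-2.05 ± 0.23, adjusted p = 5.91e-05, edgeR). *nlp-58* had 0.647, 0.925 and 1.22 CPM, against 1.47, 2.57 and 3.84 CPM in intact animals (-1.39 ± 0.16, adjusted p = 7.17e-05, edgeR). Neither *nlp-82* nor *nlp-58* overlapped between the groups. *nlp-70* was lower as well, on 42 counts in all mutant libraries and 246 in all intact ones (-2.16 ± 0.30, adjusted p = 0.000475, edgeR).

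Of the genes that mark neurons known to use CEH-14, few reached a threshold. None of 10 tested ALA genes passed both limits, but 3 peptide genes among them reached an adjusted p under 0.05 in the lower direction, beside 2.26% of all tested genes. *flp-24* had 4.03, 5.30 and 9.61 CPM (lowest, median and highest) in *ceh-14* mutants, against 6.20, 10.6 and 14.4 CPM in intact animals (log2 fold change -0.90 ± 0.16, adjusted p = 0.00437, edgeR). *flp-7* was at -0.69 ± 0.12 (adjusted p = 0.00319, edgeR) and *flp-13* at -0.71 ± 0.16 (adjusted p = 0.0196, edgeR), with negative values in all 3 backgrounds for each. These peptides, *flp-13* and *flp-24* above all, are known from the sleep-promoting function of ALA. None of 10 AFD genes, 15 neurotransmitter identity genes or 22 genes of spermatheca contractility and structure reached an adjusted p under 0.05, beside 3.61% of all tested genes. The study reports genes annotated to the spermatheca as enriched among those lowered in *tdp-1; ceh-14*, with *ceh-14* as the main driver. That set of spermatheca genes is another one and was not tested here. *osm-10*, a gene of sensory neurons that include the phasmids, was named after its value was seen: it was called lower at -1.13 ± 0.17 (adjusted p = 0.00106, edgeR) and missed the agreement rule through a value of -0.80 in the wild type background.

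**Figure D2:**
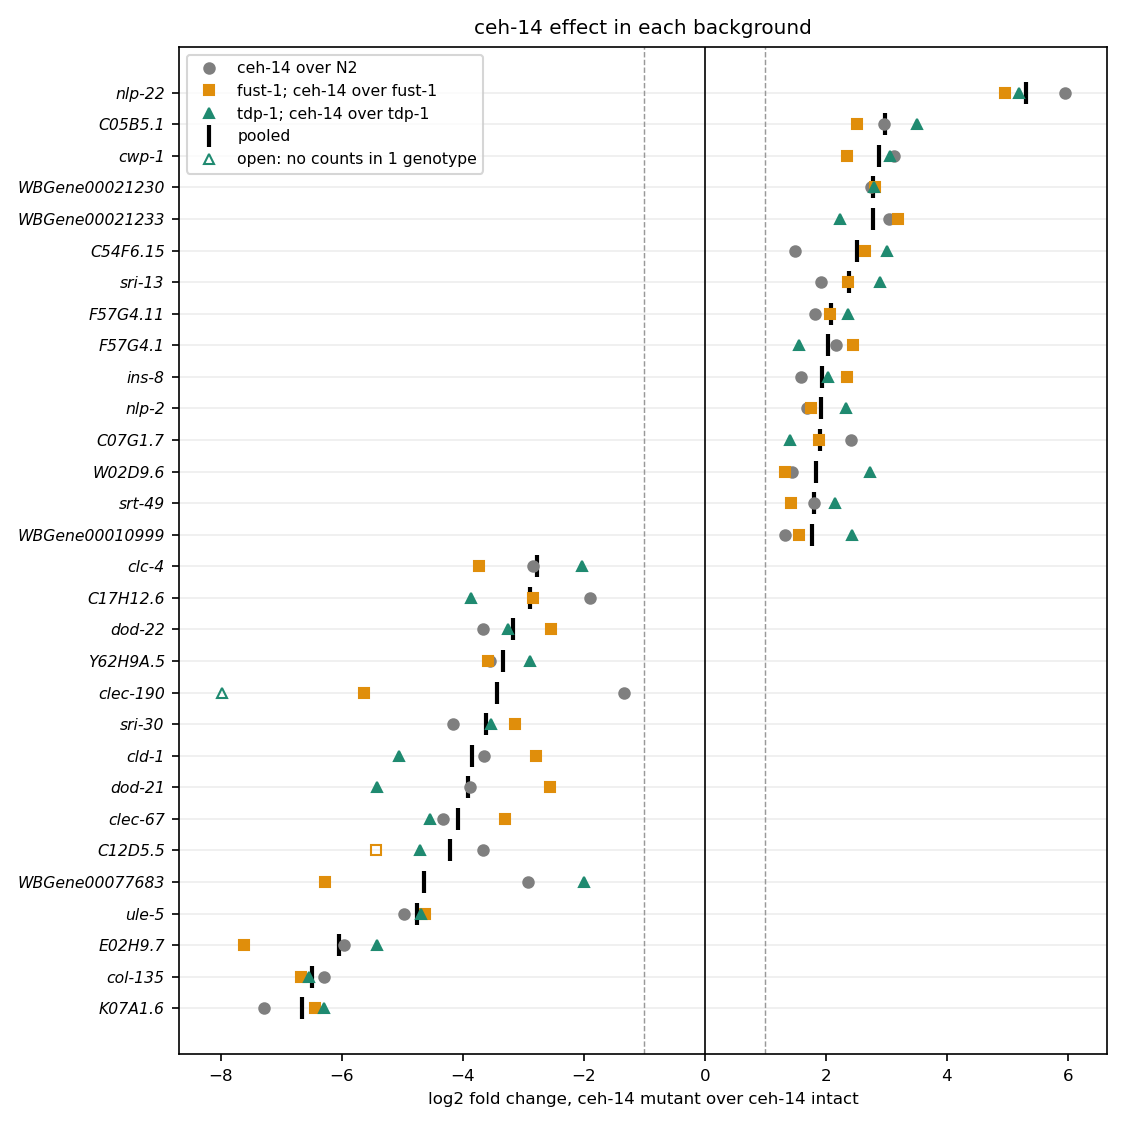
Log2 fold change of *ceh-14* mutant over *ceh-14* intact animals for the 15 largest agreeing rises and the 15 largest agreeing falls, *ceh-14* aside. Symbols give the 3 backgrounds and vertical bars the pooled fit, dashed lines mark an absolute value of 1, and open symbols mark a genotype without counts, where the value depends on the prior count. *col-135* lies between -6.30 and -6.67 in the 3 backgrounds, whereas WBGene00077683 lies between -1.99 and -6.28.

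Among the other large rises, C05B5.1, an unnamed protein-coding gene of chromosome III, had a lowest, median and highest level of 1.79, 2.08 and 3.87 CPM in *ceh-14* mutants, against 0.112, 0.231 and 0.720 CPM in intact animals (log2 fold change 2.99 ± 0.25, adjusted p = 1.97e-06, edgeR). *cwp-1*, a gene known from male-specific sensory neurons, had 0.103, 0.203 and 0.763 CPM in mutants, against at most 0.0949 CPM in intact animals (2.88 ± 0.32, adjusted p = 4.74e-05, edgeR), on 150 and 16 counts in all. Of the 5 tested male markers *cwp-1* was the only one called, beside 0.177% of all tested genes called higher. *cwp-2* was at 1.48 ± 0.35 (adjusted p = 0.0259, edgeR). The 5 markers had a median log2 fold change of 0.43, and their summed level was 1.65 to 3.11 CPM in *ceh-14* mutants and 1.39 to 2.63 CPM in intact animals. *acr-20*, which encodes a subunit of the acetylcholine receptor family and was named after its values were seen, had 1.73, 2.24 and 2.79 CPM, against 0.475, 0.816 and 1.05 CPM (1.42 ± 0.15, adjusted p = 2.38e-05, edgeR). It overlaps *imb-2* on the opposite strand over 71 of its 1847 exon bases, where reads cannot be assigned to strand with certainty. Its log2 fold change was 1.40, 1.51 and 1.36 in the wild type, *fust-1* and *tdp-1* backgrounds.

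W02D9.6, an unnamed gene, was the most abundant agreeing rise, at 57.0, 70.5 and 174 CPM in *ceh-14* mutants, against 13.6, 19.2 and 55 CPM in intact animals (1.83 ± 0.23, adjusted p = 0.000144, edgeR). Mutant and intact libraries did not overlap for C05B5.1, *cwp-1*, *acr-20* or W02D9.6. The chemoreceptor genes *sri-13* and *srt-49* rose by 2.39 ± 0.39 and 1.80 ± 0.28 on the log2 scale, with 144 and 202 counts in all mutant libraries. Their calls were lost in 6 and 5 of 12 other fits, which changed a setting or left out a letter or background. WBGene00021230, WBGene00021233 and WBGene00010999, annotated as pseudogenes, rose by 2.79 ± 0.55, 2.78 ± 0.49 and 1.77 ± 0.28. The call of WBGene00010999 was lost in 5 of those 12 other fits, and that of WBGene00021230 in 14 of 18 fits without 1 library. F57G4.1, F57G4.11, C54F6.15 and C07G1.7, all unnamed, made up the rest of the 15 largest rises, at 1.91 to 2.52. The calls of C54F6.15, F57G4.1, WBGene00021233 and *clec-266* were lost in 2, 3, 4 and 4 of the 18 fits without 1 library.

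The lower part of the ranking held more genes with few counts. C12D5.5 and the chemoreceptor gene *sri-30* rest on 4 and 6 counts in all mutant libraries, against 74 and 76 in all intact ones. WBGene00077683, without annotation, was at 0.313, 5.58 and 2.78 CPM in *fust-1* and at most 0.139 CPM in every other library, so its fall of 4.64 ± 0.80 on the log2 scale came mostly from 1 background, and its call was lost without either *fust-1* replicate B or C. *cld-1*, a CUB-like domain gene next to *dod-21*, had 0.0760, 0.259 and 0.732 CPM in *ceh-14* mutants, against 2.04, 3.67 and 10.6 CPM in intact animals (-3.84 ± 0.38, adjusted p = 1.64e-05, edgeR). C17H12.6 fell by 2.89 ± 0.37 and the claudin-like gene *clc-4* by 2.77 ± 0.31 on the log2 scale, both without overlap between the groups.

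Other genes were chosen for mention after their values were seen, for their small spread or their place in the genome. D1086.6, an unnamed gene of chromosome V, had 32.0, 37.3 and 51.9 CPM in *ceh-14* mutants, against 142, 165 and 249.5 CPM in intact animals (-2.21 ± 0.11, adjusted p = 3.71e-09, edgeR). *sto-4*, a stomatin gene, had 7.34, 7.85 and 8.89 CPM, against 14.4, 16.8 and 19.4 CPM (-1.08 ± 0.08, adjusted p = 3.33e-07, edgeR), with -1.11, -1.04 and -1.08 in the wild type, *fust-1* and *tdp-1* backgrounds. The neighbouring P-glycoprotein genes *pgp-5* and *pgp-6*, transporters of the ABC class, had log2 fold changes of -2.27 ± 0.28 and -2.22 ± 0.32 (adjusted p = 0.000123 and 0.00066, edgeR).

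Called genes often lay next to each other. Of the 110 called genes with a position, 37 had the start of another called gene within 10 kb. Of all tested genes with a position, 1.97% had a called gene that near. For 35 of the 37, at least 1 such neighbour changed in the same direction. No baseline is given for the shared direction, and 80 of all 111 called genes were lower. On chromosome IV, F55G11.7, F55G11.8, *dod-22*, F55G11.2, *dod-17* and K10D11.2 all fell within a span of 21.6 kb, and *cld-1*, *dod-21*, K08D8.4, K08D8.5 and *irg-6* fell just before it. *clec-190* and *col-135* start 4724 bases apart. Of the genes tested, 0.948% were called on chromosome IV, 0.956% on V and 0.933% on X, and 0.258%, 0.33% and 0.275% on chromosomes I, II and III. Within 500 kb of *ceh-14* itself 147 other genes were tested and 1, *col-174*, was called, beside 0.632% of all tested genes.

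**Figure D3:**
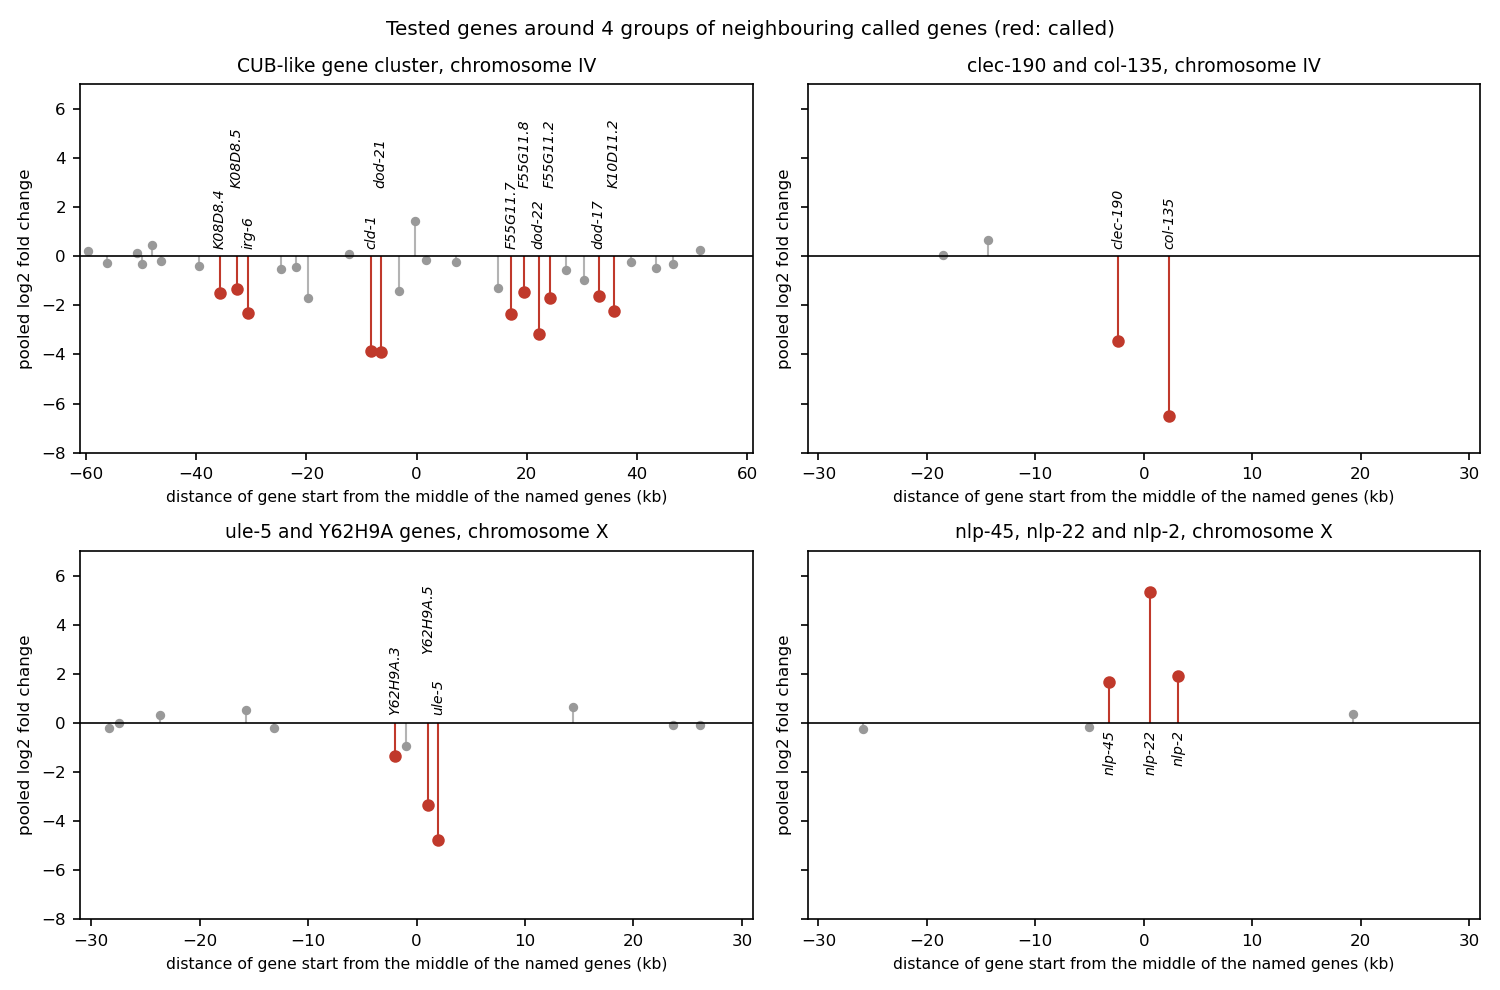
Pooled log2 fold change (*ceh-14* mutant over intact) of every tested gene around 4 groups of neighbours, against the distance of the gene start from the middle of the named genes in kb. Red points are called genes and grey points are the rest. All 11 red genes of the first panel lie below 0, and *nlp-45*, *nlp-22* and *nlp-2* lie at 1.67, 5.32 and 1.93.

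Cuticle collagens and molting genes are transcribed in a rhythm with each larval molt, and their levels varied between libraries of 1 genotype as well as between genotypes. Of 152 tested collagen genes 3 were called lower and none higher, beside 0.456% of all tested genes called lower, but the median log2 fold change of the list was -0.78, with -0.62, -0.12 and -1.39 in the wild type, *fust-1* and *tdp-1* backgrounds. Apart from *col-135*, the called collagens *col-58* and *col-174* missed the agreement rule, at -0.45 and -0.60 in the *fust-1* background. None of 18 molting cycle genes was called, and their median was -0.25, 0.0032 and -1.58 in the same order of backgrounds. Their mean level on a log2 CPM scale was 2.69 to 3.71 in *ceh-14* mutant libraries and 2.29 to 4.63 in intact libraries, highest in the 3 *tdp-1* libraries. The main axis of variation (first principal component) of the 500 most variable genes held 48.2% of their variance. It followed this mean molting level across the 18 libraries (Pearson r = 0.911). Molting and collagen genes were not left out of the 500, so part of this correlation may be built in. Its values ran from -40.7 to 3.56 in *ceh-14* mutant libraries and from -33.6 to 45.6 in intact libraries. Without *fust-1; ceh-14* replicate C, the mutant library with the highest mean level of molting genes, 45 of 155 collagen genes were called lower, beside 296 of all 17898 genes tested in that fit.

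Within the *tdp-1* background alone, 103 genes were higher (0.587%) and 193 lower (1.1%), against 12 higher (0.0683%) and 22 lower (0.125%) in the wild type background and 5 higher (0.0285%) and 19 lower (0.108%) in the *fust-1* background, by the same limits. The part that the level of molting genes has in these counts was not tested within each background. In the pooled fit with the mean molting level as a covariate, 28 genes were called higher and 62 lower, 17 and 51 of them shared with the fit without it, and 15 higher and 47 lower genes agreed, 14 and 40 of them shared.

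**Figure D4:**
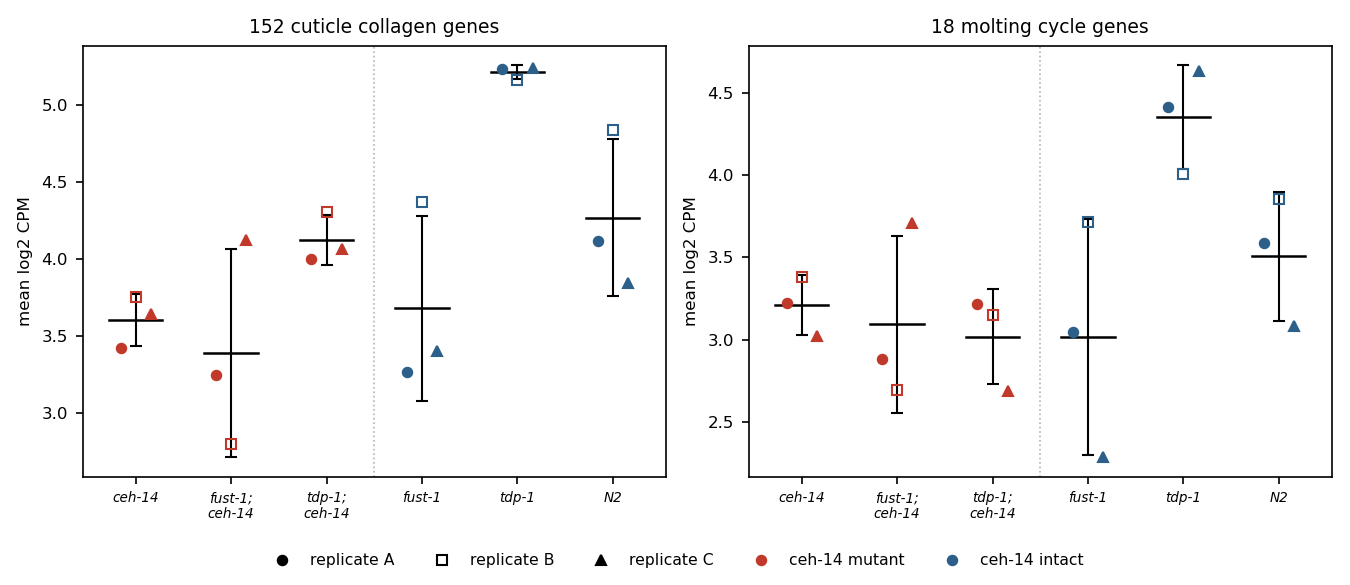
Mean level on a log2 CPM scale of 152 cuticle collagen genes and 18 molting cycle genes in the 18 libraries, with the *ceh-14* mutant genotypes left of the dotted line and the intact genotypes right of it. Points are libraries, bars means and whiskers the SD of 3 libraries. Molting genes stand at 2.69 to 3.22 in *tdp-1; ceh-14* and 4.01 to 4.63 in *tdp-1*, and the 3 *fust-1* libraries spread from 2.29 to 3.72.

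Yolk protein genes, transcribed in the intestine at the turn to adulthood, leaned the other way. None of the 6 was called, but all had a log2 fold change above 0 (median 0.55), and *vit-3*, *vit-4* and *vit-5* had an adjusted p under 0.05, beside 1.35% of all tested genes in that direction. *vit-4* stood at 977, 1865 and 3581 CPM (lowest, median and highest) in *ceh-14* mutants, against 424, 1349 and 2121 CPM in intact animals (0.75 ± 0.13, adjusted p = 0.00466, edgeR), with wide overlap. *vit-3*, *vit-4* and *vit-5* are near-identical copies, so the split of reads between them is uncertain. No gene of the oocyte and eggshell, germline, detoxification, heat shock or fatty acid lists was called, beside 0.632% of all tested genes. In that order the lists held 19, 19, 172, 22 and 38 tested genes. At an adjusted p under 0.05, 7 detoxification genes were lower and 1 higher, and *hsp-16.2* was lower. Over all tested genes 2.26% were lower and 1.35% higher at that limit. Of 82 sperm genes *ssp-37* alone was called, beside 0.456% of all tested genes called lower. It stood at 2.78, 3.43 and 6.65 CPM in *ceh-14* mutants, against 7.95, 10.8 and 12.6 CPM in intact animals (-1.43 ± 0.12, adjusted p = 1.94e-06, edgeR), and it missed agreement only through a value just short of the limit in the *tdp-1* background. *ssp-37* starts 628 bases from W02D9.6, which moved in the opposite direction.

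A test of whether the *ceh-14* effect differed between the 3 backgrounds passed an adjusted p under 0.01 for 11 genes (0.0626%). This count was 7 without *tdp-1* replicate B or *tdp-1; ceh-14* replicate B, and 110 with DESeq2 in place of edgeR. Only 1 of the 11, *haf-6*, was also called in the pooled fit. *haf-6*, which encodes a half-size ABC transporter, had 8.14, 8.15 and 10.6 CPM in *ceh-14*, 8.50, 8.93 and 8.87 CPM in *fust-1; ceh-14*, and 8.37, 8.74 and 7.69 CPM in *tdp-1; ceh-14*. It had 36.9, 38.4 and 50.6 CPM in *fust-1* and 36.8, 36.9 and 40.6 CPM in *tdp-1*, but 8.35, 8.33 and 9.55 CPM in wild type. Only the single mutants of the RNA-binding proteins were thus high. Its log2 fold change by *ceh-14* was -2.25 and -2.20 in the *fust-1* and *tdp-1* backgrounds and 0.03 in the wild type background (adjusted p of the difference = 4.12e-05, edgeR), so that the pooled value of -1.51 ± 0.29 describes no single background.

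**Figure D5:**
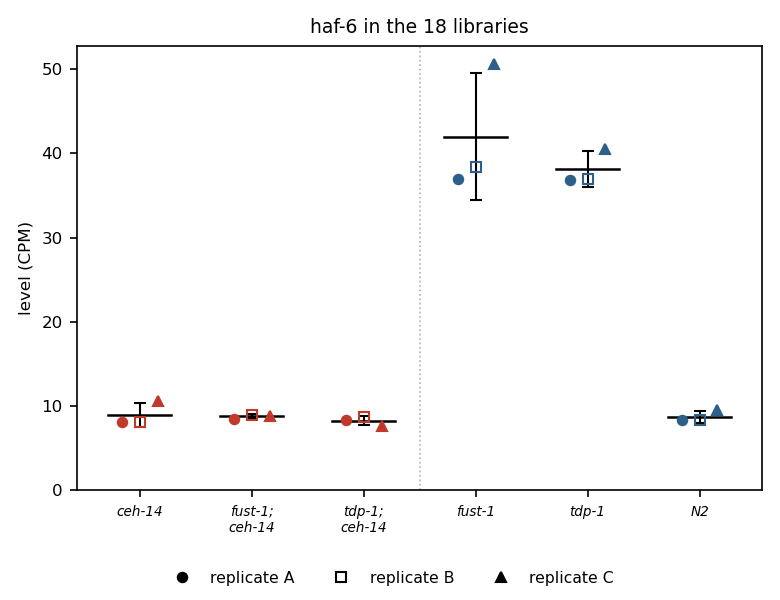
Level of *haf-6* in CPM in the 18 libraries by genotype, with the *ceh-14* mutant genotypes left of the dotted line. Points are libraries, bars means and whiskers the SD of 3 libraries. The 6 libraries of *fust-1* and *tdp-1* lie at 36.8 to 50.6 CPM, and the other 12, wild type among them, at 7.69 to 10.6 CPM.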

How the data were processed

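Per the labels and the methods of the study, the authors mapped reads of 18 poly(A) RNA libraries to WBcel235 with STAR 2.5.3a and deposited raw counts per gene made with HTSeq 0.9.1, with no normalization. Each file holds the same 46726 genes. Tallies of reads without a gene (0.461% to 0.738% of records), in more than 1 gene (1.87% to 2.75%) or at more than 1 position (5.89% to 12.2%) were left out.

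Low genes were removed by filterByExpr with genotype as the grouping. The quasi-likelihood test of edgeR 4.0.16 (R 4.3.3), on TMM-scaled libraries, then took *ceh-14* status beside RNA-binding protein background and replicate letter as additive terms. P-values were adjusted by Benjamini-Hochberg over 17560 genes, and the thresholds (adjusted p under 0.01, absolute log2 fold change over 1) are those of the study. Values within each background, and the test of the difference between backgrounds, came from 1 fit of 6 genotype means and letter. An SE was obtained by dividing the size of the log2 fold change by the root of its F statistic. Levels are CPM on TMM-scaled library sizes. Gene names, positions and overlaps came from the Ensembl annotation of the same build, which lacked 190 of the tested genes. Replicates of a genotype differed by a chi-square of at least 25.81 per degree of freedom, so none repeated another of its genotype. Intervals and standard errors do not cover error shared by libraries of 1 strain.

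Genes named were, by rule, the 3 mutated genes, *clec-190*, the 15 largest agreeing rises and falls, list members called (up to 6 a list by p) and called genes whose effect differed between backgrounds, and further names follow a count or are said to be chosen later. The members and the gene lists, written from general knowledge, were chosen with earlier results of these data known. Alternatives were DESeq2 1.42.0, its size factors, no filter, no letter, another rule of agreement, the mean of the 3 background contrasts, and leaving out each library, letter or background. The fit with the mean level of molting genes as a covariate was added after seeing the data.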

Additional observations from a re-analysis of the deposited data

Results flagged for a closer look

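The effect of *ceh-14* on *haf-6* differed between the backgrounds (adjusted p = 4.12e-05, edgeR), with high levels in the *fust-1* and *tdp-1* single mutants only.

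Groups of 9 libraries, 112 in all, were formed for the named genes and the mean collagen and molting levels. The highest or lowest library stood apart from the rest by Dixon's criterion in 21. Each group joins 3 genotypes. *tdp-1; ceh-14* replicate C was the highest of the *ceh-14* mutant libraries for *cwp-1* (0.763 CPM), *sri-13* (0.646 CPM), C05B5.1 (3.87 CPM), D1086.6 (51.9 CPM), W02D9.6 (174 CPM) and C54F6.15 (1.56 CPM). Other mutant libraries stood apart for *haf-6* (10.6 CPM) and *pgp-6* (18.4 CPM) in *ceh-14* replicate C, WBGene00021233 (6.02 CPM) in *ceh-14* replicate A, and *clec-21* (0.0726 CPM) in *tdp-1; ceh-14* replicate A.

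Among the intact libraries *fust-1* replicate C was lowest for *ceh-14* (2.70 CPM) and highest for *clc-4* (1.77 CPM), K07A1.6 (49.2 CPM), *clec-190* (2.14 CPM), W02D9.6 (55 CPM) and Y62H9A.5 (623 CPM). *fust-1* replicate A was lowest for *lys-2* (179 CPM), *fust-1* replicate B highest for WBGene00077683 (5.58 CPM), *tdp-1* replicate A highest for *clec-21* (0.621 CPM), wild type replicate A highest for WBGene00010999 (0.596 CPM) and wild type replicate C highest for Y62H9A.3 (107 CPM).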

How the results depend on the processing

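None of the 76 agreeing genes changed sign in any fit that tested it. In every fit that tested them 16 were called, among them *col-135*, *ule-5*, *nlp-22*, *nlp-2*, *sto-4* and *clec-67*. Some low genes were not tested in every fit, and C12D5.5, among the 16, was tested in 9 of the 12 fits other than those without 1 library. DESeq2 called 58 higher and 156 lower, and 110 genes for the difference between backgrounds, against 31, 80 and 11 with edgeR. Without a filter the difference count was 19. Leaving out 1 library gave 18 to 50 higher, 57 to 296 lower, 15 to 31 agreeing higher, 40 to 215 agreeing lower and 7 to 14 for the difference. Leaving out letter A gave 8 higher and 38 lower, with 5 and 34 agreeing. Leaving out letter B gave 5 and 17, with 5 and 16 agreeing, and leaving out letter C gave 56 and 358, with 28 and 260 agreeing. *ceh-14* itself then had a log2 fold change of -1.91 (adjusted p = 0.01801, edgeR) without A and -1.68 (adjusted p = 0.05503) without B. Without the wild type background 15 were higher and 28 lower, with *ceh-14* at -1.94 (adjusted p = 0.01498). Without the *fust-1* background 302 were lower, and without the *tdp-1* background 13 were higher and 31 lower. The causes were not tested, and these fits hold fewer libraries.

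The replicate letter was in the model because the comparison was defined with it. Deviations from genotype means correlated across genes at 0.343 to 0.655 between libraries of letter A, -0.0611 to 0.454 of letter B and -0.173 to 0.617 of letter C, a hint from the data and not from the design. On average 17 of 18 libraries were closest to their own letter. That count leans towards the own letter, because only the averages for other letters include libraries of the same genotype, whose deviations offset each other. With no replicate block 19 genes were higher and 58 lower, and 16 and 44 agreed.

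Genes at low levels limit what these libraries show, since 27 of the agreeing genes had a median under 1 CPM in both groups. Size factors of DESeq2 shifted the median log2 fold change by 0.0131 only, with 31 higher and 82 lower.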
